A study of Mus musculus with 6 samples.

Results

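The genes described here are those of the cytosolic ribosomal proteins and their paralogues, measured by RNA-seq in haematopoietic stem and progenitor cells of adult mice with and without Setd1b, a histone H3 lysine 4 methyltransferase. They were chosen by name alone, as protein-coding genes whose symbols start with Rpl or Rps and a digit, together with Rpsa, Rplp0, Rplp1 and Rplp2, leaving out pseudogenes and the S6 kinases. This gave 86 of the 45706 genes of the deposited table. Of these, 77 are standard ribosomal protein genes, 31 of the small subunit and 46 of the large subunit, and 9 are other members. The other members are Rps27l, Rps27rt, Rpl36al, Rpl22l1, Rpl7l1, Rpl3l, Rpl39l and Rpl10l, which are paralogues, and Rps19bp1, which meets the naming rule but encodes a protein that binds Rps19 and is not part of the ribosome.

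LSK cells (Lin- Sca-1+ c-Kit+) were sorted from the bone marrow of 3 Ctrl and 3 cKO male mice on a C57BL/6 background, with 1 library per mouse. The cKO mice carried the floxed Setd1b allele on both chromosomes (FD/FD; RC/+) and the Ctrl mice on 1 chromosome (FD/+; RC/+), and all 6 carried 1 copy of the tamoxifen-inducible Rosa26-Cre-ERT2 and received tamoxifen. The controls therefore share the recombinase, the drug and a deleted allele with the cKO, and since this Cre acts in nearly all tissues, the LSK cells came from animals that had lost Setd1b elsewhere as well. According to the labels, tamoxifen was given by gavage at 4.5 mg per day for 4 days and, after a pause of 3 days, for 2 more days, and cells were taken 3 days after the last dose. The methods of the study state fewer doses than these labels. The mice were 16 weeks old, except cKO 3 at 17 weeks.

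Each cytosolic ribosome is built from a small and a large subunit, in which ribosomal RNA is held by many proteins that are needed in near-equal numbers. Their messages are abundant in growing cells and many start with a terminal oligopyrimidine (TOP) tract, a cytidine followed by pyrimidines, through which the mTOR pathway and Larp1 control their translation. Blood formation is sensitive to their dose, since loss of 1 copy of some of these genes causes Diamond-Blackfan anaemia in humans, and free Rpl5 and Rpl11 bind Mdm2 and stabilise p53. Paralogues such as Rps27l and Rpl22l1 can take the place of the standard protein in some ribosomes, while Rpl3l, Rpl10l and Rpl39l are known from striated muscle or testis.

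The sequence around the annotated starts of transcription shows both what the genes share and how closely some copies resemble each other. The windows below span 10 bases before and 20 bases from the start in RefSeq (GRCm38.p6), 5′ to 3′ on the strand of the gene, with the run of C followed by pyrimidines that begins at the start in capitals. The first 3 are Rps27 (chr3:90213629-90213658, minus strand), its retrogene Rps27rt (chr9:114982720-114982749, minus strand) and its paralogue Rps27l (chr9:66946076-66946105, plus strand), and the next 3 are standard genes with long runs, Rpl15 (chr14:18270967-18270996, minus strand), Rps6 (chr4:86857348-86857377, minus strand) and Rpl38 (chr11:114668570-114668599, plus strand).
Rps27: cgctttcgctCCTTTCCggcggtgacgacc
Rps27rt: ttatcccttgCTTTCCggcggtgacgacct
Rps27l: cctccccgccgcctctatcccggaagttgc
Rpl15: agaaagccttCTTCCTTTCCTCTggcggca
Rps6: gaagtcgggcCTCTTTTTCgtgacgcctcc
Rpl38: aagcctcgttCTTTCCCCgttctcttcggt
Rps27rt repeats the bases that follow the run in Rps27. The window of Rps27l differs and holds no run exactly at its start, though 1 begins within 5 bases of it. A run of C with at least 4 pyrimidines after it stood exactly at the start in 13 of the 57 standard genes with a RefSeq entry (22.8%), in 1 of the 9 other members (Rps27rt) and in 3.0% of all 27025 genes of the RefSeq table. Within 5 bases of the start it was found in 47.4% of the standard genes and 21.2% of all genes. Among the 9 other members it was found there in 3 (33.3%), Rps27l, Rpl22l1 and Rps27rt. These are matches of letters on the strand of the gene, and annotated starts can lie some bases from the start in use.

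Reads of ribosomal protein genes are hard to place, since the mouse genome holds many processed copies of their messages and the authors counted uniquely aligned reads only. Stretches of 75 bases, the length of a read, were taken from a representative annotated transcript of each gene. Of these, a median of 59.8% per standard gene occurred in no other annotated gene. Genes on the opposite strand of the same locus were not counted as other genes. Rps3, a small subunit protein, had every stretch to itself, whereas 29 of the 77 standard genes had less than 50%. At the low end stood Rps27 with 1.5%, 4 of 271 stretches, and Rpl9 with 8.7%. For Rps27rt the share was 9.7%, whereas Rps27l had 88.0%, Rpl36al 76.7%, Rpl7l1 96.1% and Rpl22l1 50.4%. Like-named pseudogenes were annotated for 57 standard genes, 265 in all, and for 22 of the genes they took more counts than the gene itself. Rpl36a received 1456 counts over all 6 libraries and its pseudogenes 26839, and for Rpl19, the reference gene of the qRT-PCR in this study, the counts were 8873 and 25571.

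**Figure D1:**
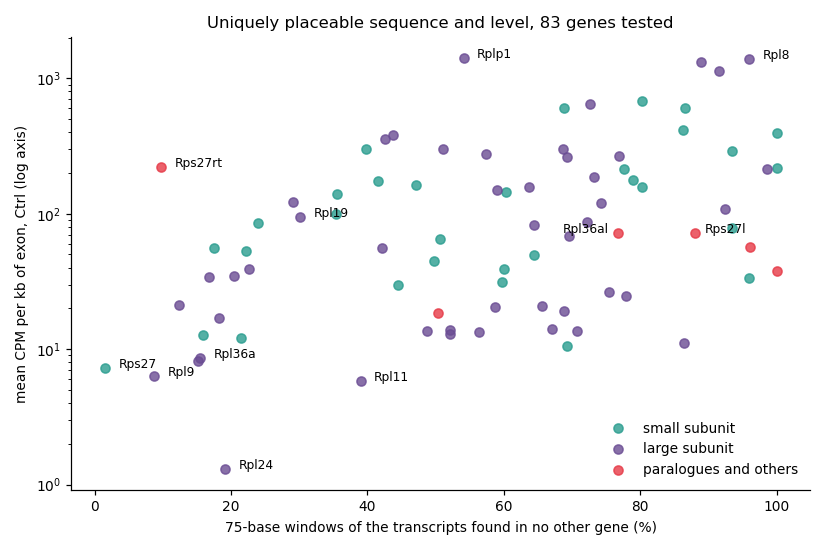
Each point is 1 of the 83 genes tested. The horizontal axis gives the share of 75-base stretches of its representative transcript that occur in no other annotated gene (%). The vertical axis, which is logarithmic, gives its mean level in Ctrl, in CPM per kb of exon. Genes with little sequence of their own, such as Rps27 at 1.5% and Rpl9 at 8.7%, lie low among the standard genes, and Rplp1 and Rpl8 lie highest.

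Levels of the standard genes were therefore compared as CPM (counts scaled to library size with TMM factors, as in edgeR) per kb of exon, and they span a wide range that partly follows this share (Spearman's rho = 0.49 across 77 genes of the same libraries, a description across genes that are not independent). In Ctrl, the highest means per kb were those of Rplp1, a protein of the stalk that recruits translation factors, with 1419 CPM per kb, Rpl8 at the peptidyl transferase centre with 1388 CPM per kb, and Rpl32 with 1329 CPM per kb. The lowest were Rpl24 with 1.30 CPM per kb, Rpl11 with 5.77 CPM per kb and Rpl9 with 6.29 CPM per kb. The exon length used is the gene length given with the deposited counts, and the order of the genes depends on it. It was 2697 bases for Rpl11, 3081 for Rpl9 and 517 for Rpl32. The transcripts used for the stretches above had 833, 738 and 906 bases. Rpl24 was read by 10 to 41 counts per library and had 19.1% of its stretches to itself. Messages of proteins needed in near-equal numbers thus differed widely in counts, and these levels are those of uniquely placed reads.

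Total counts lay between 13003573 and 21277519, TMM factors between 0.945 and 1.03, and the 6 libraries form 2 series by the library numbers in the table header, which are separate from the mouse names, the first with Ctrl 1, cKO 1 and cKO 2 and the second with Ctrl 2, Ctrl 3 and cKO 3. Counts on Gm42418 and Gm26917, which overlap ribosomal RNA, made up 4.45% to 9.04% of each library. Counts on Setd1b as a whole were higher in the cKO, with 272, 288 and 314 CPM against 221, 194 and 223 CPM in Ctrl (log2 fold change 0.46, SE 0.073, adjusted p = 0.0015 by edgeR). The deletion removes a single exon, and counts per gene cannot show it, so the groups are named by their labels. The LSK markers Kit, Ly6a and Cd34 were present in every library. Markers of other cell types differed between the groups, and the summed level of 12 granulocyte and monocyte genes was 2909 to 3509 CPM in Ctrl and 484 to 791 CPM in cKO, with 10 of the 11 tested lower, beside 3.79% of all genes. Of 12 erythroid genes 8 could be tested and 5 were lower, with sums of 471 to 522 CPM in Ctrl and 293 to 344 CPM in cKO. Of 5 mast cell and basophil genes 3 were lower, of 5 tested B lineage genes 2, of 4 tested T and NK cell genes 2, and of 5 tested megakaryocyte genes 1 (Pf4), while Procr and Mecom among the LSK genes were higher. Cd3e, which defines T cells, was at 0 in 5 of the 6 libraries, Cd8a in 4, and Cd3d and Cd3g in 3 each. The other T and NK cell genes listed, Cd4, Nkg7, Klrb1c and Gzmb, had counts in every library. The part of these cells in the results below was not tested, and in RNA from a pool of cells fewer cells of a type and less RNA per cell cannot be told apart. The paper, without showing the data, describes the composition of the LSK cells at this stage as largely comparable between the groups. By qRT-PCR in sorted subsets of LSK cells from 2 mouse pairs, it reports lower Klf1, Mpo and Ighm in cKO, each in a different subset.

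The standard ribosomal protein genes did not change past the threshold. None of the 77 genes, all of which passed the filter on low counts, was higher or lower in cKO at an adjusted p under 0.05 by edgeR's quasi-likelihood test, whereas 1164 of the 15184 genes tested were (7.67%). At an unadjusted p under 0.05, 10 of the 77 were called, all lower in cKO, beside 22.9% of all genes in either direction, and DESeq2 called 1 of the 77, Rpl8, beside 8.78% of all genes. Most estimates were slightly below 0, at 64 of 77 standard genes against 49.9% of all genes. The median log2 fold change was -0.063 over the small subunit genes and -0.11 over the large subunit genes, and -0.086 over both, where the median of all genes tested was 0.00023. By library series, the median over the 77 genes was 0.0047 (first) and -0.13 (second), and it was -0.054 without Ctrl 2 and -0.13 without Ctrl 1. The 95% interval of the log2 fold change lay inside -0.5 to 0.5 for 69 of the 77 genes, so that for these a larger change lay outside the interval. In 9 of the 77 genes, 8 of them lower in cKO, the CPM of the groups did not overlap, beside 27.3% of all genes tested. The count of called standard genes was 3 without Ctrl 1 (Rplp1, Rpl38 and Rps25) and 2 without cKO 1 (Rpl5 and Rps29), all lower in cKO.

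**Figure D2:**
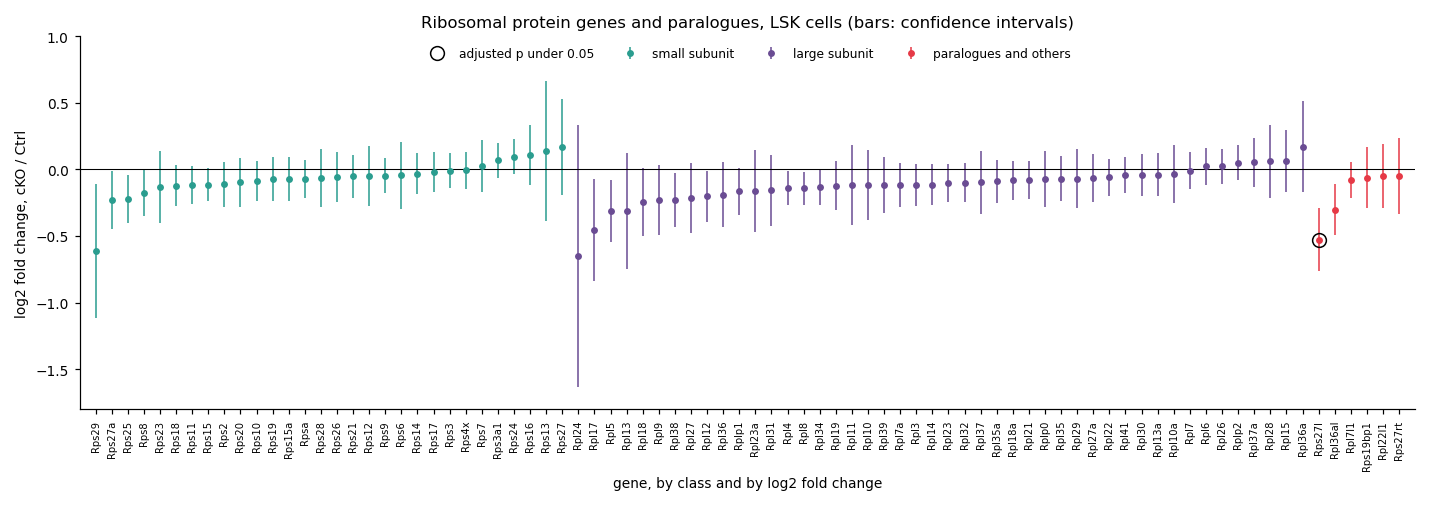
Log2 fold change of cKO over Ctrl (vertical axis) for the genes tested except 1 that is not drawn, ordered by class and value, with 95% intervals as bars. Most standard genes lie just below 0 (median -0.086), the widest interval is that of Rpl24, and Rps27l is the single gene ringed as past the threshold.

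Summed over the 77 genes, ribosomal protein messages took a similar share of each library. The share was 1.78%, 1.89% and 1.84% of all gene counts in Ctrl 1 to 3 and 1.82%, 1.83% and 1.81% in cKO 1 to 3. The means were 1.84% ± 0.055 (SD, n = 3) in Ctrl and 1.82% ± 0.0096 (SD, n = 3) in cKO, and the cKO values lay inside the range of the controls. The small subunit genes took 0.659% to 0.709% in Ctrl and 0.670% to 0.689% in cKO, and the large subunit genes 1.121% to 1.180% in Ctrl and 1.136% to 1.138% in cKO. Like-named pseudogenes took a further 0.502% to 0.550% in Ctrl and 0.510% to 0.515% in cKO. With TMM factors the sum was 17713, 19166 and 19454 CPM in Ctrl and 17730, 17700 and 18081 CPM in cKO. The single control of the first series and the mean of its cKO libraries differed by 2.20 CPM, while in the second the single cKO library was lower by 1229 CPM than the mean of its controls (cKO minus Ctrl, -1229). The 9 other members took 0.0430% to 0.0475% of the counts in Ctrl and 0.0407% to 0.0423% in cKO, which did not overlap. Taken singly, the CPM of the groups did not overlap in 2 of the 6 tested, Rps27l and Rpl36al, beside 27.3% of all genes tested. The sum therefore does not describe each member.

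**Figure D3:**
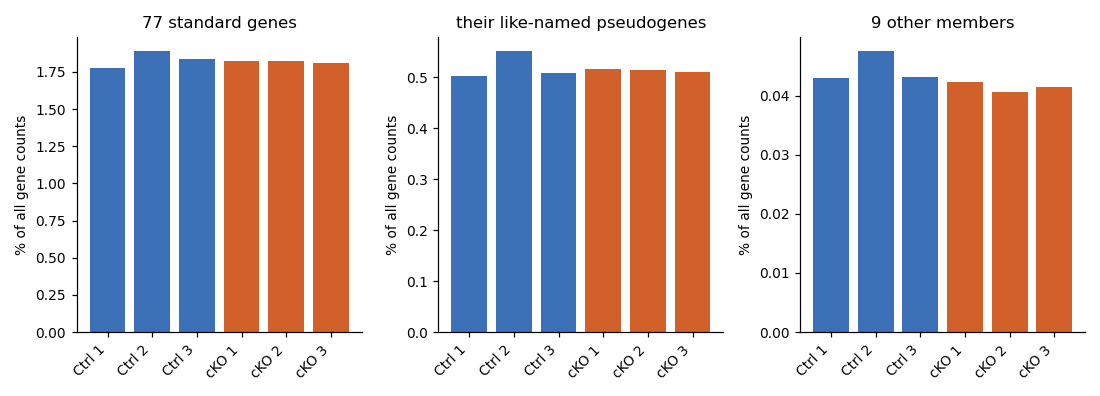
Share of all gene counts (%, vertical axes starting at 0) taken in each of the 6 libraries by the 77 standard genes, by their like-named pseudogenes and by the 9 other members. In the first panel all bars lie between 1.78% and 1.89%, and in the last the cKO bars lie below the Ctrl bars.

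Of the other members, Rps27l changed. RPS27L is known in human cells as a target of p53, and the mouse gene (ENSMUSG00000036781, chr9:66946086-66949516, plus strand) encodes a small subunit protein that closely resembles Rps27. It was counted 668, 1438 and 895 times in Ctrl and 670, 571 and 600 times in cKO. Scaled to library size these were 51.1, 68.5 and 57.3 CPM in Ctrl and 44.9, 36.3 and 42.1 CPM in cKO, so that all cKO libraries lay below all controls. The log2 fold change was -0.53 (SE 0.11, 95% interval -0.76 to -0.29), or 0.694-fold, with an adjusted p of 0.0082 by edgeR and 0.00041 by DESeq2. Among genes tested, 3.79% were called lower, and Rps27l was 1 of 6 other members tested. Within the series the difference in log2 CPM was -0.34 (first) and -0.57 (second), and with the series as a covariate the log2 fold change was -0.46 (adjusted p = 0.019). Without cKO 2, the lowest library, the log2 fold change was -0.44 and the adjusted p 0.064. Against a change of 1.2-fold instead of 0, the adjusted p was 0.11.

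Neither of its closest relatives passed the threshold. The standard gene Rps27 (ENSMUSG00000090733) was read by 93, 171 and 117 counts in Ctrl and 124, 141 and 119 counts in cKO. Its CPM were 7.12, 8.15 and 7.49 in Ctrl and 8.31, 8.96 and 8.35 in cKO, without overlap but with a log2 fold change of 0.17 whose interval, -0.19 to 0.52, spanned 0 (adjusted p = 0.61). The retrogene Rps27rt (ENSMUSG00000050621), which shares nearly all of its sequence, had 72.2, 108 and 66.4 CPM in Ctrl and 83.8, 75.3 and 80.7 CPM in cKO (log2 fold change -0.047, interval -0.33 to 0.24, adjusted p = 0.88). Its groups overlapped, the highest and the lowest value both being controls, and the sign turned without Ctrl 2 (0.20). Reads of Rps27 and Rps27rt can be told apart in few places, so that the division of counts between them is uncertain.

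Rpl36al, an intronless paralogue of Rpl36a in the large subunit, had 100 CPM in Ctrl 1, 82.7 in Ctrl 2 and 109 in Ctrl 3, and 77.9, 78.5 and 80.2 CPM in cKO. All cKO libraries again lay below all controls, with a log2 fold change of -0.30 (SE 0.090, interval -0.49 to -0.11). Its adjusted p of 0.054 by edgeR missed the threshold, whereas that by DESeq2 was 0.029, and the edgeR value ranged from 0.0045 without Ctrl 2 to 0.22 without Ctrl 3. The standard gene Rpl36a had 11.9, 17.7 and 13.1 CPM in Ctrl and 17.0, 17.4 and 14.0 CPM in cKO, with overlapping groups and a log2 fold change of 0.17 (adjusted p = 0.58). Only 15.4% of the stretches of Rpl36a were its own.

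The remaining members with enough counts showed no difference beyond their spread. Rpl7l1, a relative of Rpl7 that takes part in ribosome assembly, had 144 to 152 CPM in Ctrl and 136 to 145 CPM in cKO (log2 fold change -0.079, interval -0.21 to 0.054). Rpl22l1, which can replace Rpl22, had 31.6, 42.9 and 36.6 CPM in Ctrl and 34.4, 39.3 and 33.9 CPM in cKO (log2 fold change -0.051, interval -0.29 to 0.19, adjusted p = 0.84). Rps19bp1 had 28.6 to 35.3 CPM in Ctrl and 28.5 to 32.3 CPM in cKO (log2 fold change -0.062, interval -0.29 to 0.17). The tissue-restricted members were at or near 0 and below the filter. Rpl10l had no count in any library, Rpl39l 0 to 3 counts, and Rpl3l 0 to 3 counts except for 10 in Ctrl 2.

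**Figure D4:**
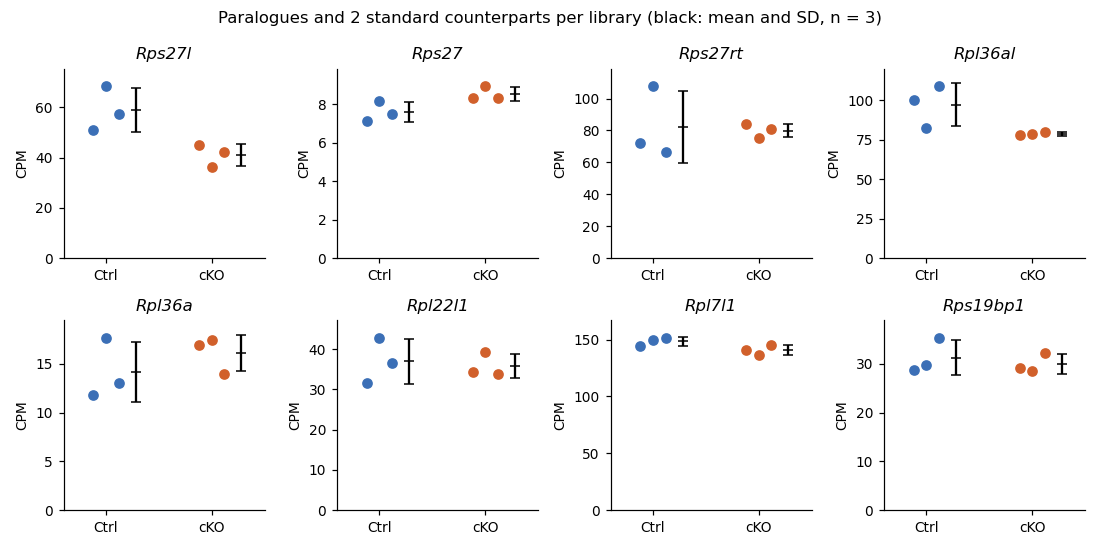
CPM per library (points, vertical axes starting at 0) of the 6 other members tested and of Rps27 and Rpl36a, in Ctrl and cKO, with mean and SD of 3 mice in black. The cKO points lie below all Ctrl points in Rps27l and Rpl36al, above them in Rps27, and the groups overlap in the other 5 genes.

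The ratio of raw counts of a paralogue and its standard gene within a library does not depend on scaling. It is not corrected for length or shared sequence, so that it compares libraries and not the levels of the genes, and 5 of 8 pairs had at least 10 counts of both genes in every library. For 3 against 3 mice the smallest p of the exact two-sided permutation test is 0.1, so that no pair could pass a threshold of 0.05. Rps27l was counted 7.18, 8.41 and 7.65 times as often as Rps27 in Ctrl and 5.40, 4.05 and 5.04 times as often in cKO. The mean log2 ratio was 2.95 ± 0.11 (SD, n = 3) in Ctrl and 2.26 ± 0.22 (SD, n = 3) in cKO, lower by 0.69 in cKO (difference -0.69, exact permutation p = 0.1, adjusted p = 0.25 over 5 pairs). The ratio was lower in cKO within both library series, by -0.62 and -0.67. For Rpl36al and Rpl36a the ratios were 8.45, 4.67 and 8.37 in Ctrl and 4.59, 4.51 and 5.75 in cKO, which overlapped (difference of the mean log2 ratio -0.49, exact permutation p = 0.2). Ratios of Rpl22l1 to Rpl22 were 0.0531, 0.0705 and 0.0540 in Ctrl and 0.0586, 0.0659 and 0.0544 in cKO (exact permutation p = 0.8). Those of Rpl7l1 to Rpl7 were 0.356 to 0.395 in Ctrl and 0.333 to 0.398 in cKO (exact permutation p = 0.6). The fifth pair sets Rps4l, a transcribed pseudogene in the annotation used and no member, against Rps4x, with ratios of 0.0333, 0.0336 and 0.0373 in Ctrl and 0.0281, 0.0247 and 0.0288 in cKO (exact permutation p = 0.1, adjusted p = 0.25).

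Among the standard genes, the 3 lowest estimates belonged to Rpl24, Rps29 and Rpl17, which were read by 109, 572 and 874 counts over all 6 libraries. Rpl24 had the lowest log2 fold change, -0.65, on 16, 41 and 13 counts in Ctrl and 11, 18 and 10 counts in cKO, and its interval reached from -1.63 to 0.33. Rps29, a small protein of the 40S head, was counted 87, 141 and 131 times in Ctrl and 96, 60 and 57 times in cKO. At 6.66, 6.72 and 8.38 CPM in Ctrl and 6.43, 3.81 and 4.00 CPM in cKO the groups did not overlap, but the adjusted p for a log2 fold change of -0.61 was 0.13. Rpl17, near the exit tunnel of the large subunit, had 8.57, 11.9 and 10.9 CPM in Ctrl and 8.78, 6.92 and 7.22 CPM in cKO (log2 fold change -0.46, adjusted p = 0.14). The estimate of Rpl13 rested on 1 mouse, with 56.7, 119 and 67.9 CPM in Ctrl against 76.7, 70.0 and 51.1 CPM in cKO, and without Ctrl 2 its log2 fold change turned from -0.31 to 0.080.

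Rpl5 came closest to the threshold. This partner of 5S ribosomal RNA and Rpl11 had 51.1, 52.6 and 57.8 CPM in Ctrl and 51.7, 40.3 and 38.0 CPM in cKO, where cKO 1 lay among the controls. The log2 fold change was -0.31 (SE 0.11, interval -0.54 to -0.083, adjusted p = 0.095), and without cKO 1 it was -0.46 with an adjusted p of 0.017. Rpl11 had 15.2, 14.7 and 16.8 CPM in Ctrl and 16.1, 14.7 and 12.1 CPM in cKO (log2 fold change -0.12, adjusted p = 0.67). Rps14, lost with the long arm of chromosome 5 in a human myelodysplastic syndrome, had 205 to 229 CPM in Ctrl and 204 to 235 CPM in cKO (log2 fold change -0.033, interval -0.19 to 0.12).

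At the other end of the order the highest log2 fold changes were those of Rpl36a (0.17), Rps27 (0.17), Rps13 (0.14), Rps16 (0.11) and Rps24 (0.097), with adjusted p-values from 0.38 to 0.80. Rps13 was spread over 4.70 to 10.8 CPM within cKO alone. Rps13 and Rps16 were below 0 once the counts of their like-named pseudogenes were added (-0.075 and -0.041). For the 3 genes with the highest levels per kb, the log2 fold changes were -0.17 for Rplp1 (interval -0.34 to 0.0084), -0.14 for Rpl8 (-0.26 to -0.022) and -0.10 for Rpl32 (-0.25 to 0.048). Rpl9 and Rpl18 had log2 fold changes of -0.23 and -0.24, with adjusted p-values of 0.28 and 0.24. Rpl19 had 88.4, 106 and 95.9 CPM in Ctrl and 79.4, 92.8 and 94.96 CPM in cKO, overlapping, with a log2 fold change of -0.12 (interval -0.30 to 0.061, adjusted p = 0.44).

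Of 19 ribosomal protein genes known from Diamond-Blackfan anaemia, none passed the threshold by edgeR or DESeq2, and 2 had an unadjusted p under 0.05, beside 22.9% of all genes. Their median log2 fold change was -0.072, their summed level was 2178 to 2368 CPM in Ctrl and 2161 to 2301 CPM in cKO, and the smallest adjusted p-values were those of Rpl5, Rps29 and Rpl18 given above. Outside the naming rule, Rack1, a scaffold on the small subunit, had a log2 fold change of -0.11 (interval -0.25 to 0.032, adjusted p = 0.36 by edgeR and 0.32 by DESeq2). Fau, which encodes a ribosomal protein fused to a ubiquitin-like domain, had one of -0.020 (interval -0.33 to 0.29, adjusted p = 0.96 by both tools).

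Among genes that build the ribosome or work on it, those that passed the threshold were lower in cKO. Of 70 ribosome biogenesis genes tested, 13 were lower in cKO and none higher, beside 3.79% of all genes called lower, with a median log2 fold change of -0.18. Their summed level was 11995 to 12665 CPM in Ctrl and 10217 to 10697 CPM in cKO, without overlap. Ncl, nucleolin, had 3721, 3803 and 4095 CPM in Ctrl and 3131, 3262 and 3061 CPM in cKO (log2 fold change -0.30, SE 0.062, adjusted p = 0.0078). For Nolc1, a nucleolar phosphoprotein, the log2 fold change was -0.37 (adjusted p = 0.0028), for Bop1, which acts in maturation of the large subunit, it was -0.39 (0.0034), for Nat10, which acetylates 18S RNA, -0.35 (0.0042) and for Mphosph10, of the small subunit processome, -0.34 (0.0075). The count was 6 without Ctrl 3 and 7 without cKO 2, and 27 once length trends between libraries were removed.

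Of 40 translation factors, 6 were lower and none higher, beside 3.79% of all genes called lower, with a median log2 fold change of -0.13. They were Eif3b (log2 fold change -0.26), Eif5b (-0.24), Gspt1 (-0.23), Pabpc4 (-0.43), Eif2s1 (-0.29) and Eif5a (-0.23), which act in initiation, termination, at the poly(A) tail and in elongation. Eif3b had 430, 427 and 444 CPM in Ctrl and 379, 363 and 343 CPM in cKO (adjusted p = 0.016). This count was 4 without Ctrl 1, 3 without Ctrl 2, 2 without cKO 1, 1 without cKO 3 and 0 without Ctrl 3 or without cKO 2, and 11 by DESeq2. A TOP run stood exactly at the start in 2 of 31 translation factors and 0 of 61 biogenesis genes with a RefSeq entry. Among all genes the share was 3.0%. Within 5 bases of the start, 6 factors (19.4%) and 17 biogenesis genes (27.9%) had a run, beside 21.2% of all genes. Of 10 genes listed as chaperones of ribosomal proteins, none passed the threshold and 4 had an unadjusted p under 0.05, beside 22.9% of all genes, and DESeq2 called 0. The list is a broad one that includes Naca, Btf3 and Rps19bp1, the last also counted among the other members. The smallest adjusted p-values were those of Bccip (log2 fold change -0.28, adjusted p = 0.087, and 0.036 without Ctrl 2), Grwd1 (-0.27, 0.11) and Heatr3 (-0.21, 0.15).

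Of 24 tested genes of the mTOR, S6 kinase and Myc axis, 2 were lower and 2 higher, beside 7.67% of all genes called in either direction, and the median log2 fold change was -0.072. Larp1, which binds TOP messages, had 568, 580 and 572 CPM in Ctrl and 449, 448 and 459 CPM in cKO (log2 fold change -0.34, SE 0.057, adjusted p = 0.0017). Myc, a transcriptional activator of ribosome genes, had 475, 482 and 515 CPM in Ctrl and 363, 386 and 387 CPM in cKO (-0.37, SE 0.062, adjusted p = 0.0017). Mycn had 39.8, 53.2 and 46.6 CPM in Ctrl and 57.2, 69.1 and 101 CPM in cKO (0.70, SE 0.16, adjusted p = 0.014). The kinase gene Rps6ka3, which does not encode the S6 kinase of the mTOR pathway, had 115, 176 and 147 CPM in Ctrl and 233, 186 and 188 CPM in cKO (0.46, SE 0.12, adjusted p = 0.029). The higher pair was not called by DESeq2 (adjusted p = 0.094 and 0.14). Without Ctrl 3 the count fell from 4 to 2, where Mycn (adjusted p = 0.065) and Rps6ka3 (0.10) missed the threshold. Rps6ka3 also missed it without Ctrl 1 (0.073), without cKO 1 (0.13) and without cKO 2 (0.055), and Mycn without cKO 3 (0.056). The genes of the S6 kinases of the mTOR pathway, Rps6kb1 (log2 fold change 0.034, adjusted p = 0.84 by edgeR) and Rps6kb2 (-0.23, 0.31), did not pass.

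Of 16 genes of the p53 response, through which disturbed ribosome assembly is known to be sensed, 4 were lower and none higher, beside 3.79% of all genes called lower, with a median log2 fold change of -0.24. Phlda3 had 7.35, 9.96 and 8.57 CPM in Ctrl and 3.15, 4.57 and 4.49 CPM in cKO (-1.09, SE 0.22, adjusted p = 0.0059). Zmat3 had 20.97, 32.9 and 23.4 CPM in Ctrl and 11.99, 13.5 and 15.4 CPM in cKO (-0.93, SE 0.16, adjusted p = 0.0026). Ccng1 (-0.40, adjusted p = 0.0028) and Aen (-0.25, adjusted p = 0.042) were the others, all without overlap between the groups. Aen missed the threshold when any library other than cKO 3 was left out, with adjusted p-values from 0.051 to 0.16.

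**Figure D5:**
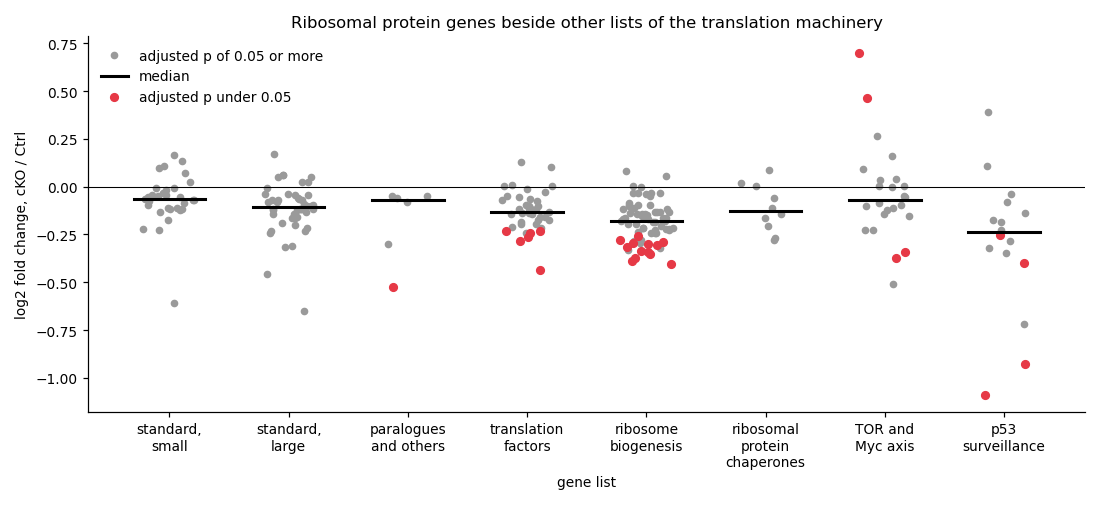
Log2 fold change of cKO over Ctrl (vertical axis) of each gene tested, by list, with genes past the adjusted p of 0.05 in red and the median of the list as a bar. No standard gene is red, the biogenesis list has 13 red points below 0, and the p53 list holds the lowest values.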

How the data were processed

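Per the labels and the methods of the study, libraries were made from total RNA with a stranded kit and sequenced as single reads. The authors aligned them with GSNAP to mm10 and deposited raw counts per gene (featureCounts 1.5.0, Ensembl 81, strand-specific, uniquely aligned reads), without normalization or pooling. All columns were matched to mice by name. Symbols and biotypes came from GENCODE M21 by gene identifier (98.8% of genes). The members and lists were chosen with earlier results of these data known.

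Counts were analysed with edgeR 4.0.16 (R 4.3.3): filterByExpr defaults, TMM factors, the quasi-likelihood test of cKO against Ctrl on all 6 libraries, and Benjamini-Hochberg adjustment over the 15184 genes tested (threshold 0.05). Standard errors came from the size of the log2 fold change over the root of its F statistic, and 95% intervals used the matching t quantile. Ratios of raw counts were tested by exact permutation. Beyond the other members, Setd1b, Rpl19, Rpl5, Rpl11 and Rps14, genes were named by rule: the 5 highest and lowest log2 fold changes and 3 highest and lowest levels per kb among the standard genes, and up to 5 called genes (otherwise the 3 smallest adjusted p-values) per list. Others, such as Eif5a, were named after their values were seen, and some genes of the lists are not reported here by name. DESeq2 1.42.0 and other settings served as alternatives. Scripts were tested on simulated data. P-values rest on the spread between 3 mice per group. In edgeR and DESeq2 the spread of each gene was moderated with that of all genes tested.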

Additional observations from a re-analysis of the deposited data

How the results depend on the processing

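For the 49 named genes with a test, 757 of 851 alternative values kept direction and side of the threshold, 64 lost and 13 gained the call, and 17 changed sign. Counts of calls that moved by more than 1.5 times are given here, and the causes were not tested. With DESeq2, 1 standard gene, 2 other members, 11 translation factors and 2 genes of the mTOR axis were called. Without a filter on low counts there were 2 standard genes, 2 other members and 1 chaperone. With the GC trend removed, or with mitochondrial, rRNA and dominant genes left out, 2 other members were called. With the length trend removed, 11 translation factors and 27 biogenesis genes were. At a threshold of 0.01, 0 translation factors, 6 biogenesis genes and 2 genes of the mTOR axis had an adjusted p below it. Against 1.2-fold, 0 other members, 0 translation factors, 0 biogenesis genes, 0 genes of the mTOR axis and 2 of the p53 list passed.

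Leaving out each mouse in turn gave 0 to 3 standard genes, 0 to 2 other members, 0 to 4 translation factors, 6 to 14 biogenesis genes, 0 to 1 chaperones, 2 to 4 genes of the mTOR axis and 3 to 4 of the p53 list. The difference in the log2 ratio of Rpl22l1 to Rpl22 (0.019) then lay between -0.056 and 0.15. The difference in summed share (cKO minus Ctrl, -0.017 percentage points) was -0.064 of protein-coding counts, -0.044 without Ctrl 1 and 0.011 without Ctrl 2. Log2 fold changes that turned sign without a mouse lay between -0.15 and 0.070 for Rpl22l1, -0.19 and 0.20 for Rps27rt, -0.12 and 0.031 for Rps19bp1, -0.11 and 0.0018 for Rps14, -0.51 and 0.080 for Rpl13, -0.19 and 0.39 for Rps13, and -0.079 and 0.037 for Fau. With the length trend removed, Rps27rt (0.076), Rps19bp1 (0.011) and Fau (0.054) turned, with the series as a covariate Rps27rt (0.0083), Rps14 (0.024) and Rps13 (-0.043), and with pseudogene counts added Rps13 (-0.075) and Rps16 (-0.041). All of these are genes that were not called. The paper describes the control and cKO mice as littermates. The labels used here give neither litters nor replicate numbers, so no paired analysis was made. Low counts limit Rpl24 and Rps29, and shared sequence limits Rps27 and Rpl36a.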
